A study of Mus musculus with 2 samples.

Results

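The genes described here are the subunits of the phagocyte NADPH oxidase, with the Rac GTPases that work with it, and the inducible nitric oxide synthase, measured in the mouse macrophage line RAW264.7, which the labels describe as leukaemia cells. The 7 genes, Cybb, Cyba, Ncf1, Ncf4, Rac1, Rac2 and Nos2, were taken by symbol from a count table of 56791 genes, and all 7 were found. Both cultures were wild type and were grown in DMEM with 20% serum and antibiotics. As the labels are read here, each was given IL-4 (20 ng, recombinant, mouse) for 24 h, the cytokine that drives alternative (M2) activation of macrophages. The culture called treated here also received 10000000 particles of a preparation labelled FAPD10-exos over the same time, and the other received vehicle. The study asked how that preparation bears on M2 polarization. Each group was 1 library of 1 culture of 1 cell line, so no difference below has a replicate check, no p-value was computed, and every statement compares these 2 libraries only.

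The phagocyte NADPH oxidase passes electrons from NADPH across a membrane to oxygen and so makes superoxide, which phagocytes use against microbes. Its catalytic subunit gp91phox (Cybb) is held and stabilised in the membrane by p22phox (Cyba), and the enzyme works when cytosolic subunits, among them p47phox (Ncf1) and p40phox (Ncf4), and a GTP-bound Rac protein join it. Inducible nitric oxide synthase (Nos2) makes nitric oxide from arginine and is a classical marker of inflammatory macrophages, whereas arginase (Arg1), which uses the same arginine, is a marker of IL-4-treated mouse macrophages.

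Promoter windows of 250 bases before and 50 bases after the RefSeq transcription start (build GRCm38.p6) were at hand for 3 of the 7 genes, Cybb, Cyba and Ncf1. They are shown because the partner subunits Cybb and Cyba had ratios in opposite directions before correction for length. Windows were searched on both strands for 4 short motifs: AANNGAAA of interferon regulatory factors (IRF), TTCNNNGAA of STAT factors (GAS), GAGGAAG of ETS factors such as PU.1, and GGGACTNTC of NF-kappaB. Capitals mark matches, and all 3 windows lie on the minus strand and are written 5′ to 3′ along the gene.
Cybb, chrX:9469275-9469574: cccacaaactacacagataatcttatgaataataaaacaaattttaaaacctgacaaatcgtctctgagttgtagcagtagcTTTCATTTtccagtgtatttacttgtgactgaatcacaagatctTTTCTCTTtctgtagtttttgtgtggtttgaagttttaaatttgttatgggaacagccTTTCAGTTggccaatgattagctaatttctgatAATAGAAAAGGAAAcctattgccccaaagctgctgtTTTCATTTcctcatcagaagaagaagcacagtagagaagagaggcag
Cyba, chr8:122432891-122433190: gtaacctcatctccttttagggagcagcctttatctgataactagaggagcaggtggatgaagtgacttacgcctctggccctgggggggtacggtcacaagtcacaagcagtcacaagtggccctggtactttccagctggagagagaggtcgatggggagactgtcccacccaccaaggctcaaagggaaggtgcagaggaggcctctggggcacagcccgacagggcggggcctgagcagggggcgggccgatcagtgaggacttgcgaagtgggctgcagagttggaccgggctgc
Ncf1, chr5:134229576-134229875: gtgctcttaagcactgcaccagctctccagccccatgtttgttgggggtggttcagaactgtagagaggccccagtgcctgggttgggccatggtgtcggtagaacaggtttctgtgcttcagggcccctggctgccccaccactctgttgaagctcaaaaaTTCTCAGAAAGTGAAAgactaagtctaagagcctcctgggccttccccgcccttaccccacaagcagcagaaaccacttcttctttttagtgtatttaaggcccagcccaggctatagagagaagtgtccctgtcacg

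The Cybb window held 6 IRF matches, starting at positions -168, -124, -66, -33, -27 and 4 from the transcription start, of which those at -33 and -27 overlap. Of 32851 promoter windows of this length, 23.9% held at least 1 IRF match and 4 held 6 or more. The cutoff of 6 was taken from the Cybb window itself. The Ncf1 window held 1 GAS match at -88 and 1 IRF match at -80, which share a base, and the Cyba window held none of the 4 motifs. GAS matches were present in 8.30% of all windows, ETS matches in 13.6% and NF-kappaB matches in 1.13%. G and C made up 35.3% of the Cybb window, against a median of 52.7% over all windows. These matches describe the letters only.

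The treated library held 37196241 counts and the vehicle library 36152743. Levels are given in CPM, counts per 1000000 counts of the library size after TMM scaling, and the 12264 genes whose mean over the libraries reached 1 CPM are called measured. Ratios are treated over vehicle with 95% counting intervals, which cover counting error only. Among genes with 1 to 50 counts, the count was even for 76.3% with FAPD10-exos and 75.1% without, a pattern that read pairs counted at both ends would give, and intervals with counts halved are also given for Nos2, Arg1 and the called genes with fewer than 100 counts in both libraries. A gene was called higher or lower at 1.5-fold or more with an interval beyond 1. In these bulk libraries, less RNA per cell and fewer cells of a kind cannot be told apart. Of 8 macrophage markers, 7 were measured in both libraries, among them Csf1r at 287 CPM (treated) and 343 CPM (vehicle) and Lyz2 at 1013 and 1110 CPM. Of the 7, only Adgre1, the gene of a surface receptor of mature macrophages, was called higher and 0 were called lower. Over all measured genes 17.1% were called higher and 19.8% lower. Adgre1 had 247 against 90 counts and a ratio of 2.91 (2.28 to 3.75), stood at 1.32 and 1.61 in log2 after the corrections for exon and coding transcript length described further on, and its part in the results was not tested. After the correction for exon length 1 of the 7 was called lower, Cd68 at -0.73, beside 16.3% of measured genes. After that for coding transcript length 2 were, Cd68 at -0.82 and Lyz2 at -0.64, beside 11.6% of genes with a known length. Of markers of other cells, 8 neutrophil genes summed to 2 and 0 counts, 6 fibroblast genes to 4 and 4, 5 muscle genes to 10 and 10, 4 endothelial genes to 26 and 14 and 4 lymphocyte genes to 2 and 2. The muscle counts were all of Acta1 in the treated library and all of Des in the vehicle library.

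The 7 genes did not move together. Cybb and Nos2 were lower in the treated library, and the other 5 were higher by 1.29-fold to 1.47-fold, under the threshold. Thus 0 of 7 were called higher, where 17.1% of measured genes were, and 2 of 7 were called lower, where 19.8% were, so the counts of called genes are close to those of the table at large. The median log2 ratio of the 7 was 0.42, beside 0.01 for all measured genes. Scaling bears on that background: higher genes made up 46.3% of all called genes with TMM and 32.3% with scaling by total counts, which moved the median of all genes by -0.13 in log2.

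Cybb, the catalytic subunit, was the gene of the membrane pair that was lower. It had 8383 counts with FAPD10-exos and 16106 without, or 236 against 426 CPM. It was therefore 1.81-fold lower with FAPD10-exos (1.76 to 1.86), the largest difference among the 6 oxidase genes, though under 1.5-fold after the correction for coding transcript length. Cyba, its membrane partner, had 6396 against 4830 counts, or 180 against 128 CPM. Its ratio was 1.41 (1.35 to 1.46), in the other direction, which that correction reversed.

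Among the cytosolic subunits, Ncf1, the organiser that carries the complex to the membrane on phosphorylation, had 15674 against 12872 counts, or 440 against 341 CPM. Its ratio was 1.29 (1.26 to 1.32), the smallest of the 5 higher genes. Ncf4, whose PX domain binds a phosphoinositide of phagosome membranes, had 1389 against 1029 counts, or 39.0 against 27.2 CPM, and a ratio of 1.43 (1.32 to 1.56). Both ratios thus lay above 1 and below 1.5-fold, with intervals that did not include 1.

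The Rac GTPases had ratios close to those of Ncf1 and Ncf4. Rac1, which is expressed in nearly all cells, had 2205 against 1597 counts, or 62.0 against 42.3 CPM, with a ratio of 1.47 (1.37 to 1.56). Rac2, the form typical of blood cells, had 887 against 703 counts, or 24.9 against 18.6 CPM, with a ratio of 1.34 (1.21 to 1.48). Rac3 was near the limit of detection at 10 against 8 counts. Rac2 made up 28.6% (27.0 to 30.2, exact binomial) of the counts of the 3 Rac genes with FAPD10-exos and 30.5% (28.6 to 32.4) without, so before correction for length the balance between the forms did not differ beyond counting error. After the corrections for exon and coding transcript length described further on, the ratio of Rac2 to Rac1 was 0.811 and 0.777 of its vehicle value. The values of Rac1 are uncertain, since it shares exon bases with another gene.

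Nos2 was the least abundant of the 7 genes, with 43 against 103 counts, or 1.21 against 2.73 CPM. With FAPD10-exos it was 2.26-fold lower (1.57 to 3.30, or 1.34 to 3.92 with counts halved). It was the only one of the 7 past 2-fold, which 8.64% of measured genes passed in that direction. Nos2 counts were few in both libraries, and its level per exon length exceeded that of 3.44% of measured genes in the treated library and 9.96% without FAPD10-exos. The other synthase genes were close to absent, with 2 against 8 counts for the neuronal form Nos1 and 0 against 4 for the endothelial form Nos3.

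**Figure D1:**
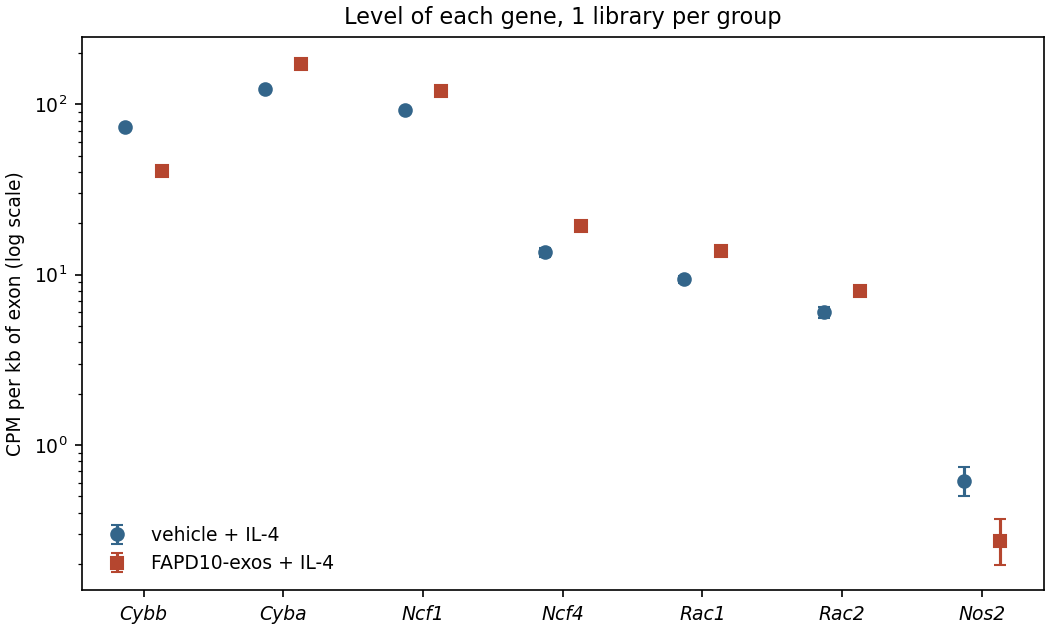
Level of each gene in CPM per kb of exon (log axis), with circles for the vehicle library and squares for the treated library and bars for 95% Poisson counting intervals of the count. Cybb stood between Ncf1 and Ncf4 in both libraries, at 73.4 in the vehicle and 40.6 in the treated library, and Nos2 lay far below the oxidase genes.

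Per exon length, the order of the 7 levels was the same in both libraries. Cyba stood first with 173 CPM per kb with FAPD10-exos and 123 without, followed by Ncf1 with 120 and 93.0. Cybb followed with 40.6 and 73.4 CPM per kb, so that its distance to Ncf1 was small in the vehicle library and wide in the treated one. Ncf4 had 19.3 and 13.5, Rac1 13.8 and 9.40, Rac2 8.03 and 5.99 and Nos2 0.272 and 0.614. Neighbours in this order had counting intervals that did not overlap in either library. The median measured gene had 3.71 CPM per kb with FAPD10-exos and 3.84 without, so the 6 oxidase genes were above it and Nos2 below. With the length of the longest coding transcript in place of the exon length the order was the same.

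The position of Rac1 in that order depends on its neighbour. By the deposited exon positions, 51.4% of the exon length of Rac1 is shared with Daglb, a gene on the opposite strand, and 11.1% of that of Ncf1 with Gtf2ird2, whereas the other 5 genes share no exon base with another gene. The sources used here do not say whether reads in such stretches were counted, or for which gene. Over the unshared 2187 bases alone, Rac1 would stand at 28.3 and 19.3 CPM per kb in the treated and vehicle library, above Ncf4 in both. Daglb had a ratio of 1.04 (0.947 to 1.13) and Gtf2ird2 one of 0.837 (0.769 to 0.911), both smaller than those of Rac1 and Ncf1. The values of Rac1 are therefore uncertain.

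The sources used here give no mouse build for the coordinates of the table, in which Cybb lies on chromosome X from 9301491 to 9354010 and Cyba on chromosome 8 from 123151515 to 123159669, both on the minus strand. Ncf1 lies on chromosome 5 from 134248907 to 134258479 and Rac1 on the same chromosome from 143489389 to 143513791, again on the minus strand. Ncf4 (78129001 to 78146780, plus strand) and Rac2 (78443367 to 78456983, minus strand) are on chromosome 15, within a short distance of each other. Nos2, on the plus strand of chromosome 11, spans 78811613 to 78851080. All 7 are protein-coding genes counted over exons, in 15 separate exon blocks for Cybb, 7 for Cyba, 11 for Ncf1, 11 for Ncf4, 9 for Rac1, 7 for Rac2 and 29 for Nos2.

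Ratios in these libraries were lower in longer genes, and the 7 genes differ widely in it, from 1039 bases of exon for Cyba to 5808 for Cybb. Across the 12264 measured genes, which are not independent replicates, Spearman's rho between exon length and log2 ratio was -0.45, and it was -0.61 across 9918 genes with the length of the longest coding transcript. The part of length in the differences between the libraries was not tested. Of 245 genes with exon lengths of 5601 to 5816 bases, to which Cybb belongs, the median log2 ratio was -0.18 and the middle 50% lay between -0.57 and 0.19. Cybb, at -0.86, was below that range. Nos2, at -1.17, was below the range of its own length bin, -0.35 to 0.31. Rac1, at 0.55, was above its range of -0.45 to 0.33, whereas Cyba, at 0.49, lay inside its range of -0.08 to 0.71, as did Ncf4, Ncf1 and Rac2 in theirs.

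**Figure D2:**
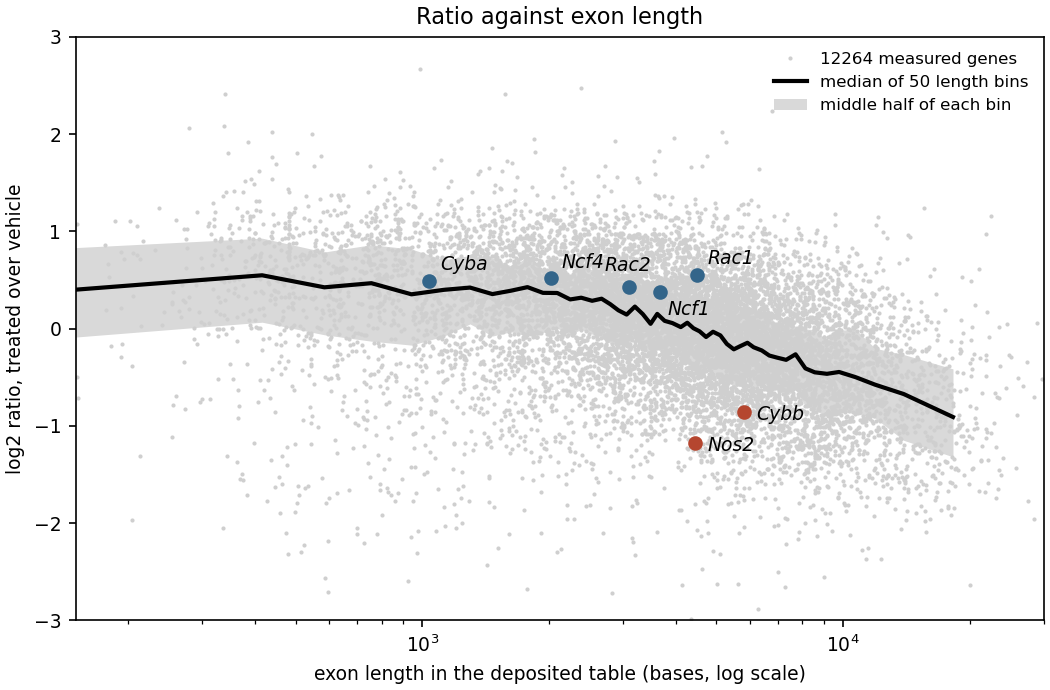
Log2 ratio (treated over vehicle) against exon length in bases (log axis) for the measured genes (grey), with the running median over 50 length bins (line), the middle of each bin (shaded, from the lower to the upper quartile) and the 7 genes (coloured, red where called lower). Cybb and Nos2 lie below the shaded band and Rac1 above it, while the other 4 lie within it; 192 genes outside the axes are not drawn.

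With the median of its exon length bin subtracted, Cybb stood at -0.68 in log2 and Nos2 at -1.18, and both were still called lower, as 16.3% of measured genes were by that rule. Rac1 stood at 0.58, just under the threshold, and 0 of 7 genes were called higher, against 12.3% of measured genes. Cyba, Ncf1, Ncf4 and Rac2 then lay at 0.094, 0.22, 0.15 and 0.28. Correction by coding transcript length, added after the data were seen, ended the call of Cybb, which stood at -0.51, or 1.42-fold lower. Nos2, at -0.91, was then the only 1 of 7 called lower, against 11.6% of the 9918 genes with a known length, and Rac1, at 0.78, the only 1 called higher, against 10.5%. Cyba, at -0.16, changed direction under this correction, while Ncf1, Ncf4 and Rac2 kept theirs at 0.34, 0.078 and 0.41.

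**Figure D3:**
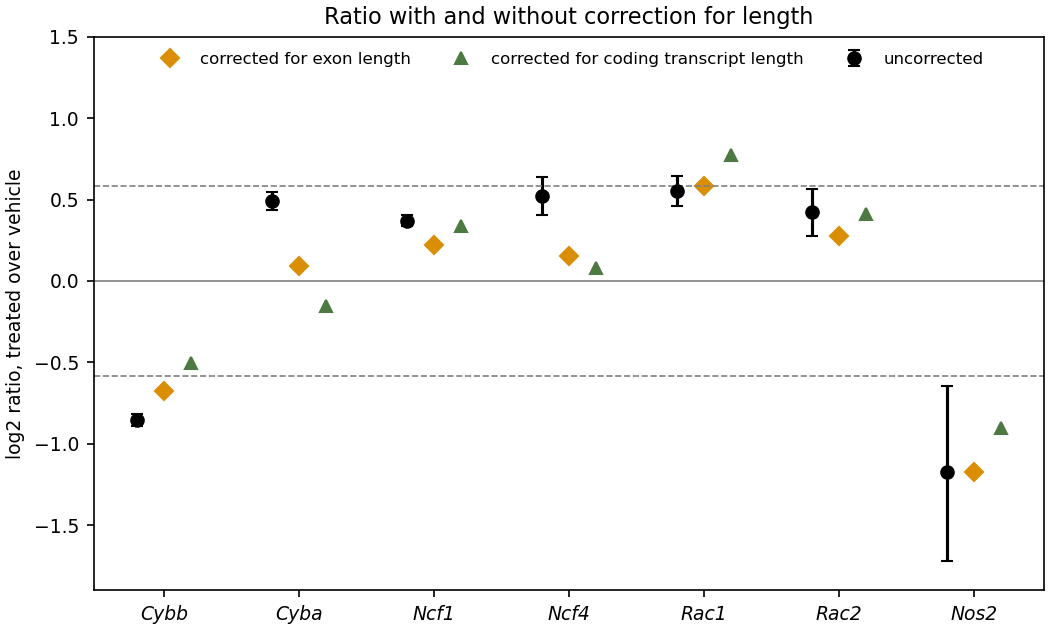
Log2 ratio of each gene (treated over vehicle) without correction (black, bars are 95% counting intervals), corrected for exon length (diamonds) and for coding transcript length (triangles). Dashed lines mark 1.5-fold; Nos2 was beyond the lower line in all 3, Cybb in 2 of 3, and Cyba crossed 0 with the correction for coding transcript length.

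Ratios between genes of the same library are free of the scaling between libraries, though not of the trend with length. In the vehicle library there were 3.33 counts of Cybb for each count of Cyba, and in the treated library 1.31. With FAPD10-exos that ratio was thus 2.54-fold lower (2.43 to 2.66), but 1.71-fold lower after correction for exon length and 1.28-fold after correction for coding transcript length. Set against the cytosolic subunits and GTPases described here, comparisons chosen after the data were seen, Cybb was 2.34-fold lower relative to Ncf1 (2.26 to 2.42) and 2.59-fold relative to Ncf4 (2.38 to 2.83). It was 2.65-fold lower relative to Rac1 (2.47 to 2.85) and 2.42-fold relative to Rac2 (2.19 to 2.69). After correction for exon length, these 4 ratios were 1.86-fold, 1.78-fold, 2.39-fold and 1.94-fold lower, and after correction for coding transcript length 1.797-fold, 1.5002-fold, 2.43-fold and 1.89-fold.

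Before correction for length, the balance among the other genes of the 6 differed less. The ratio of Cyba to Ncf4 was 0.981 of its vehicle value (0.897 to 1.07), and that of Rac2 to Rac1 was 0.914 (0.811 to 1.03), both with intervals that include 1. That of Cyba to Rac1 was 0.959 (0.890 to 1.03). The pairs of Cyba with Ncf4, with Rac1 and with Ncf1 were added after the data were seen. Cyba relative to Ncf1 was at 1.09 (1.04 to 1.14) and Ncf1 relative to Ncf4 at 0.902 (0.829 to 0.982), the latter including 1 with counts halved and rounded down (0.799 to 1.02). The contrast with Cybb did not hold after correction for coding transcript length, when Cyba was 1.91-fold lower relative to Rac1 and 1.41-fold lower relative to Ncf1, both more than Cybb relative to Cyba. Summed over the 6 oxidase genes, the level was 982 CPM with FAPD10-exos and 983 without. Within that sum the share of Cybb was 24.0% (23.5 to 24.4) of counts in the treated and 43.4% (42.9 to 43.9) in the vehicle library. Under TMM scaling the uncorrected total thus hardly differed between the libraries while its makeup did. That total depends on the scaling between libraries, whereas the share of Cybb does not.

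**Figure D4:**
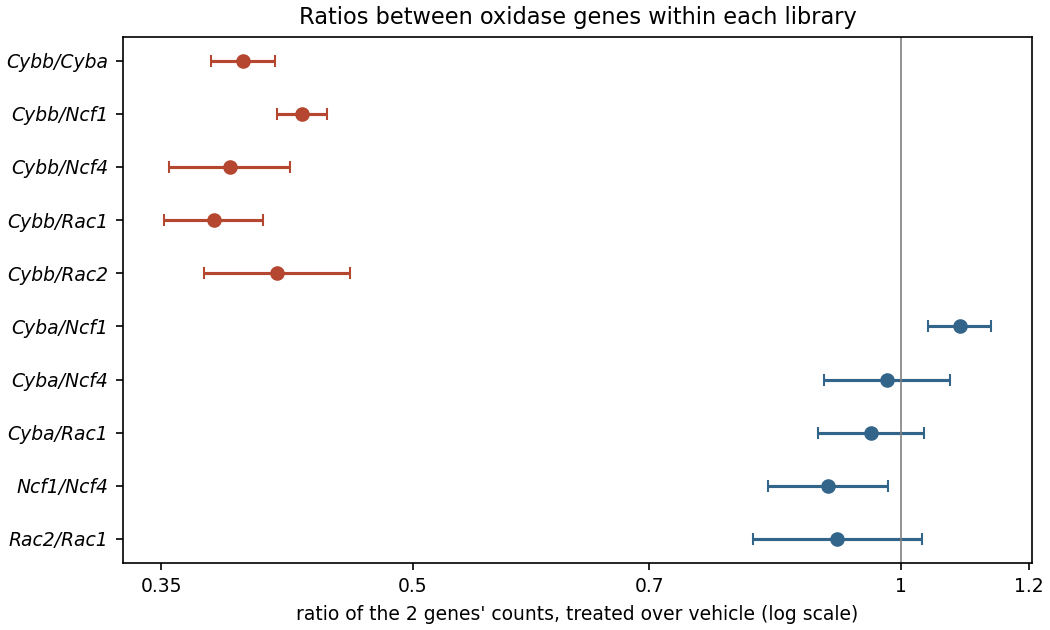
Ratio of the counts of 2 oxidase genes in the treated library over that in the vehicle library (log axis), with exact conditional 95% intervals. The 5 ratios with Cybb (red) lie between 0.377 and 0.427, and the 5 ratios drawn among the other genes (blue) between 0.902 and 1.09, all without correction for length. Further pairs among those other genes were not computed. Apart from Cybb/Cyba, Ncf1/Ncf4 and Rac2/Rac1, the pairs drawn were chosen after the data were seen.

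Of 11 further genes of the oxidase family and its dedicated partners, 4 had a count and 3 were measured. Their median log2 ratio was 1.19, and 2 were called higher and 0 lower, beside 17.1% and 19.8% over all genes. Nox1, a homologue of Cybb best known from colon, had 99 against 46 counts and a ratio of 2.29 (1.60 to 3.32, or 1.37 to 3.93 with counts halved). Of the exon length of Nox1, 12.1% is shared with Cstf2, so its value is uncertain. Hvcn1, the proton channel that compensates the charge moved by the oxidase, had 93 against 38 counts and a ratio of 2.60 (1.76 to 3.90, or 1.49 to 4.69 with counts halved), but 44.2% of its exon length is shared with Tctn1, so its value is uncertain. Cybc1, a chaperone needed for gp91phox and p22phox protein, had 603 against 464 counts and a ratio of 1.38 (1.22 to 1.56). Nox4 had 0 counts in both libraries, which allows up to 0.0843 CPM with FAPD10-exos and 0.0794 CPM without.

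Of 20 genes, which were Rac3 and exchange factors, GTPase-activating proteins and other genes that act on Rac, 17 were measured. Their median log2 ratio was -0.53, and 0 were called higher and 7 lower, beside 17.1% and 19.8% of all measured genes. The exchange factor Prex1, which responds to G protein and PI3-kinase signals in phagocytes, had 1453 against 3319 counts and was 2.15-fold lower (2.02 to 2.29). Tiam1 was 2.32-fold lower (1.501 to 3.68, or 1.24 to 4.56 with counts halved) from 30 against 74 counts, Dock1 1.96-fold (1.79 to 2.14) and Vav2 1.81-fold (1.47 to 2.25). These are long genes, and after correction for exon length 3 of the 17 were called lower, where 16.3% of all measured genes were. Prex1 and Tiam1 were among them, at -0.60 and -0.77 in log2. Dock1 and Vav2 were then under the threshold at -0.50 and -0.56. The other was Arhgdia at -0.60, not called before correction and named after its values were seen. After correction for coding transcript length 1 was called lower, Prex1 at -0.60, where 11.6% of all genes with a known length were. Tiam1, Dock1 and Vav2 then stood at -0.54, -0.27 and -0.43. The medians of the list after these corrections were -0.33 and -0.27.

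Of 21 kinases, lipases and adaptors that signal to the oxidase, 19 were measured. Of these, 1 was called higher and 4 were called lower, beside 17.1% and 19.8% over all genes, and their median was -0.07 in log2. Prkcd, a protein kinase C that phosphorylates p47phox, was the higher one at a ratio of 1.64 (1.54 to 1.75), and stood at 0.93 and 0.68 in log2 after the corrections for exon and coding transcript length. Pik3cg was 1.88-fold lower (1.60 to 2.21), Pak2 1.74-fold (1.65 to 1.83) and Pld1 2.08-fold (1.40 to 3.14, or 1.18 to 3.79 with counts halved), and the other of the 4, Prkca, is named after its values were seen. After these corrections 0 and 1 genes of this list were called lower, and the median was -0.08 and 0.05.

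In the nitric oxide pathway, 13 of 21 genes were measured, with 2 called higher and 1 lower, beside 17.1% and 19.8% over all genes, and a median log2 ratio of 0.39. Ass1, which rebuilds arginine from citrulline, had 54 against 33 counts and a ratio of 1.74 (1.11 to 2.77). With counts halved that interval included 1 (0.908 to 3.42), and after the corrections for exon and coding transcript length Ass1 was under the threshold at 0.48 and 0.41 in log2. Spr, the last enzyme of tetrahydrobiopterin synthesis, had a ratio of 1.98 (1.81 to 2.16), and was under the threshold at 0.48 in log2 after correction for coding transcript length. The arginine transporter gene Slc7a1 was 1.76-fold lower (1.67 to 1.84), but stood at -0.23 in log2 after correction for exon length, and Slc7a2 had 0 counts in both libraries. Gch1, the entry enzyme of tetrahydrobiopterin synthesis, had 128 against 124 counts and a ratio of 1.10 (0.850 to 1.41). Arg1, which was not among the measured genes, had 14 against 3 counts and a ratio of 4.96 (1.38 to 26.9). With counts halved that interval included 1 (0.812 to 80.6). The counts of Nos2 per count of Arg1 were thus 3.07 with FAPD10-exos and 34.3 without, an 11.0-fold lower ratio with a wide interval (2.87 to 62.7, or 1.92 to 781 with counts halved and rounded down).

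Of 11 enzymes that supply NADPH or run the pentose phosphate pathway, 3 were called higher and 0 lower, beside 17.1% and 19.8% over all genes, and their median was 0.27 in log2, or -0.19 after correction for coding transcript length. The ratio of the transaldolase gene Taldo1 was 2.08 (1.98 to 2.18), that of Rpe 1.76 (1.53 to 2.02) and that of Rpia 1.68 (1.54 to 1.83). After correction for coding transcript length Taldo1 and Rpia were under the threshold at 0.55 and 0.46 in log2, and Rpe was still called at 0.76. The value of Rpe is uncertain, since 17.9% of its exon length is shared with Kansl1l. The transketolase gene Tkt, at 1.44 (1.38 to 1.504), was under the threshold before correction. It was called higher after the corrections for exon and coding transcript length, at 0.85 and 0.59 in log2. After correction for exon length 4 of the 11 were called higher, beside 12.3% of measured genes. After that for coding transcript length 2 were, beside 10.5% of genes with a known length.

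Among 9 genes that dispose of superoxide and peroxide, 5 were measured, of which 4 were called higher and 0 lower, beside 17.1% and 19.8% over all genes. Their median was 0.94 in log2, or 0.60 and 0.37 after the corrections for exon and coding transcript length. The mitochondrial dismutase gene Sod2 had 2275 against 1543 counts and a ratio of 1.57 (1.47 to 1.67), and stood at 1.09 and 1.14 in log2 after the corrections for exon and coding transcript length. The cytosolic dismutase gene Sod1 and the peroxidase genes Gpx4 and Gpx1 had ratios of 2.09, 2.03 and 1.92, and stood at 0.32, 0.37 and 0.41 after correction for coding transcript length, under the threshold. The value of Gpx1 is uncertain, since 84.0% of its exon length is shared with Gm57050. The other measured gene, Cat, of catalase, is named after its values were seen. It had 607 against 903 counts and a ratio of 0.714 (0.643 to 0.792). After these corrections Cat was called lower, at -0.79 and -0.64 in log2, beside 16.3% and 11.6% of genes. Then 4 and 1 of the 5 were called higher, beside 12.3% and 10.5%.

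Of 11 transcription factors known to act on Cybb or Nos2, all measured, 2 were called higher and 4 lower, beside 17.1% and 19.8% over all genes. Their median was -0.34 in log2, or -0.04 and -0.43 after the corrections for exon and coding transcript length. Irf8, an interferon regulatory factor needed for Cybb expression in myeloid cells, had 836 against 1642 counts and was 1.85-fold lower (1.70 to 2.01). Rela, the NF-kappaB subunit p65, was 1.61-fold lower (1.44 to 1.80), Hif1a, which acts on Nos2, 1.998-fold (1.90 to 2.10) and Elf1 1.93-fold (1.80 to 2.07). These 4 stood at -0.59, -0.83, -0.85 and -0.67 after correction for exon length and were then still past 1.5-fold, when 5 of the 11 were called lower, beside 16.3% of all measured genes. After correction for coding transcript length they stood at -0.92, -0.74, -0.65 and -0.68, and 4 of the 11 were called lower, beside 11.6%. Spi1, the gene of PU.1, and Cebpb, both named after their values were seen, were the 2 called higher, at 1.60 and 1.54, and neither passed 1.5-fold after correction for exon length.

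**Figure D5:**
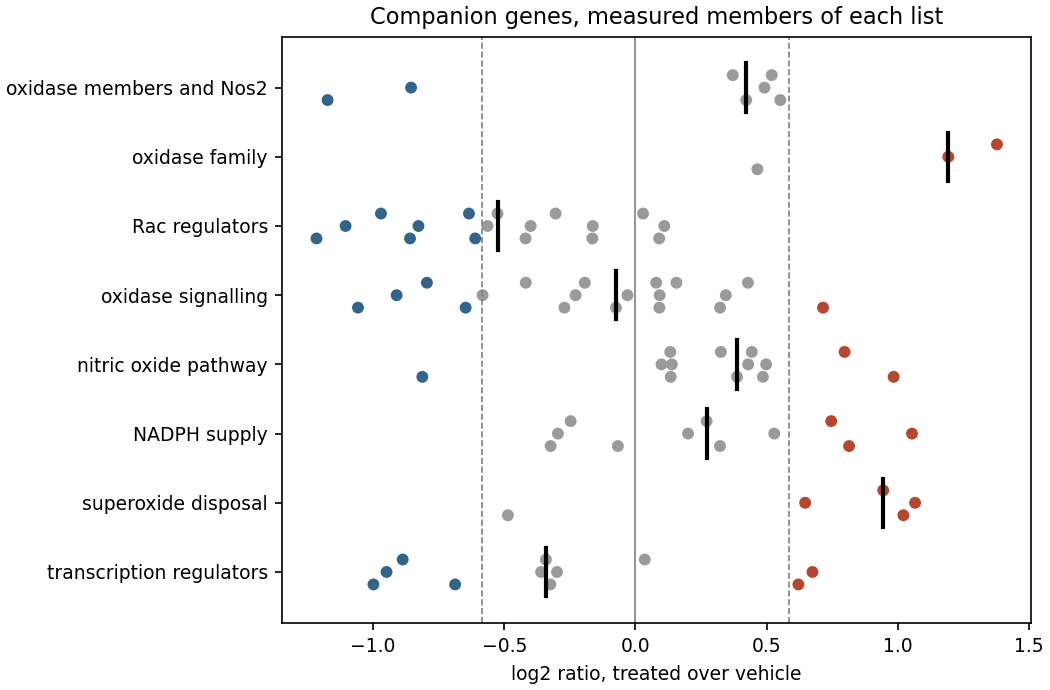
Log2 ratio (treated over vehicle) of each measured gene in the 7 genes and in the 7 companion lists, with called genes in red (higher) and blue (lower), others in grey, a black bar at the median of each list and dashed lines at 1.5-fold. The median was 0.42 for the 7 genes, -0.53 for the Rac regulators and 0.94 for superoxide disposal.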

How the data were processed

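RNA was taken with TRIzol and libraries followed an Illumina protocol, per the labels. The authors deposited 1 table of counts per gene, not normalised, in the layout of featureCounts. Per the submitters' processing notes, fastp 0.23.4, STAR 2.5.3a and featureCounts were used and the build was GRCh38, which is human although the symbols are mouse. For annotation, strand setting and multi-match handling the sources used here give nothing.

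From these counts, effective library sizes were computed by TMM (edgeR 4.0.16, R 4.3.3), with alternatives from DESeq2 1.42.0 size factors, upper quartile and totals. With 1 library per group no model could be fitted. Ratio intervals are exact Clopper-Pearson intervals of the treated share of both counts, and a gene with 0 counts had 0.5 added to both. A count of 0 allows up to 3 counts. Length correction subtracted the median log2 ratio in 50 bins of equal gene number. Coding transcript lengths and shared 50-base windows came from GENCODE M21. The code was tested on simulated counts. Other steps used scipy 1.17.1, pandas 2.3.3, numpy 2.4.6 and matplotlib 3.10.9 under Python 3.11.15.

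Named were the 7 genes, up to 4 genes per list with the largest absolute log2 ratio among those reaching 100 counts over both libraries, and 11 fixed genes. A gene of a fixed list is not reported here. No genes are named for a like pattern, since 2 libraries give 1 difference per gene. The genes and lists were chosen with earlier results of these data known.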

Additional observations from a re-analysis of the deposited data

How the results depend on the processing

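Each group had 1 library, so no library could be left out and no paired analysis was possible. The median log2 ratio of the 7 genes, 0.42, became 0.29 with total counts, 0.15 after correction for exon length and 0.078 for coding transcript length. The genes called higher, 0 of 7, became 2 with upper-quartile scaling (Rac1 and Ncf4) and 1 with the coding transcript length (Rac1). The genes called lower, 2 of 7, became 1 with a filter at 10 CPM, which Nos2 does not pass, 1 at 2-fold and 1 with the coding transcript length. Cybb stood at -0.98 in log2 with total counts, -0.90 with median of ratios, -0.79 with upper quartile, -0.68 after correction for exon length and -0.51 for coding transcript length. Cyba stood at 0.36 with total counts, 0.56 with upper quartile, 0.094 after correction for exon length and -0.16 for coding transcript length. Ncf1 stood at 0.24, 0.33 and 0.44 under the 3 scalings and 0.22 after correction for exon length. Ncf4 stood at 0.39 with total counts, 0.15 after correction for exon length and 0.078 for coding transcript length, and Rac1 at 0.42 with total counts and 0.78 after correction for coding transcript length. Every other value of the 7 genes lay inside the counting interval of its TMM value. The ratio of Ncf1 to Ncf4, 0.902 uncorrected, was 1.05 after correction for exon length and 1.198 for coding transcript length, and that of Cyba to Ncf1, 1.09 uncorrected, was 0.916 and 0.710. That of Rac2 to Rac1, 0.914 uncorrected, was 0.811 and 0.777.

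Medians of the companion lists were also outside their counting intervals as follows. With total counts they were 0.14 for NADPH supply, 0.82 for superoxide disposal and -0.47 for the transcription factors. Superoxide disposal was at 0.90 with median of ratios and 1.01 with upper quartile. With a filter at 10 CPM the oxidase family was at 0.46 and the transcription factors at -0.52. After correction for exon length NADPH supply was at 0.16, superoxide disposal at 0.60 and the transcription factors at -0.041. With coding transcript length the Rac regulators were at -0.27, the nitric oxide pathway at 0.16, NADPH supply at -0.19 and superoxide disposal at 0.37.

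Counts in the companion lists moved by more than 1.5 times as follows. At 2-fold, 1 gene of NADPH supply was higher in place of 3, 2 of superoxide disposal in place of 4, and 0 of the nitric oxide pathway, 0 of oxidase signalling and 0 of the transcription factors in place of 2, 1 and 2. At 2-fold 2 Rac regulators were lower in place of 7, 1 gene of oxidase signalling in place of 4, 0 of the nitric oxide pathway in place of 1 and 0 transcription factors in place of 4. Of the nitric oxide pathway, 1 gene was higher with counts halved, with a filter at 10 CPM or with coding transcript length, 5 were higher without a filter, and 0 were lower after either length correction. With a filter at 10 CPM, 0 genes of the oxidase family and 1 transcription factor were higher and 2 genes of oxidase signalling lower. Higher transcription factors were 1 with median of ratios and 0 with total counts and after either length correction. In superoxide disposal 1 gene was lower with total counts and after either length correction, and 1 was higher after correction for coding transcript length. Among the 7 genes the depth limits Nos2 most, since its interval spans a factor of 2 at 43 and 103 counts.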
